A study of Mus musculus with 2 samples.

Results

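The transcripts of 10 genes that set the pace of the G1 phase of the cell cycle were examined in restimulated OT-I cells with and without Eomes overexpression. The genes were chosen by name and comprise the D cyclins *Ccnd2* and *Ccnd3*, the E cyclins *Ccne1* and *Ccne2*, the kinases *Cdk2*, *Cdk4* and *Cdk6*, and the CDK inhibitors *Cdkn1a*, *Cdkn1b* and *Cdkn2c*. All 10 were listed in both libraries, among 14732 gene symbols listed for at least 1 library. D cyclins are induced by antigen receptor and cytokine signals and bind Cdk4 and Cdk6, which phosphorylate the retinoblastoma protein and so release E2F transcription factors. E2F factors then induce E cyclins, which activate Cdk2 and commit the cell to DNA replication. INK4 inhibitors such as the product of *Cdkn2c* block Cdk4 and Cdk6, whereas the Cip/Kip inhibitors encoded by *Cdkn1a* and *Cdkn1b* act mainly on Cdk2 complexes. In CD8+ T cells this switch precedes the rapid divisions of clonal expansion.

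Both conditions started from splenic and lymph node CD8+ T cells of C57BL/6 OT-I transgenic mice, aged 6 to 8 weeks, in which nearly all CD8+ T cells carry a receptor for SIINFEKL, a peptide of OVA. Peptide (2.5 ng/mL) and IL-2 (10 U/mL) were given for 24 h, and the cells were then transduced with a retroviral vector that carries human CD2, either alone (control) or with Eomes (Eomes-overexpressing). After 48 h, cells with human CD2 on the surface were sorted, and 40000 cells per well received peptide and IL-2 at the same doses for 3 days. Each condition was sequenced as 1 library (called the control and the Eomes library), the number of mice behind each was not given, and the vector drives Eomes independently of its own gene regulation.

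The comparison asks how these cell cycle genes stood in cells forced to express much Eomes. There is no replicate check, so no p-value is given, and a difference is described by its size against a threshold of 1.5-fold and against the spread of other genes at a similar level. Levels are in RPKM, the number of reads scaled to transcript length and library depth, so that genes of different length can be compared. Log2 ratios are Eomes-overexpressing over control. Read numbers were not part of the files and the depth of the libraries is unknown, so no counting interval is given. *Eomes* itself rose from an RPKM of 2.47 to 129.64, in the direction of the labels. All 7 markers fixed for CD8 T cells reached an RPKM of 1, whereas the 3 markers of CD4 T cells summed to at most 0.53 and *Ms4a1*, *Pax5*, *Csf1r*, *Adgre1*, *Lyz2* and *Ncr1* of other immune cells were not listed. Summed markers were 2.87 and 1.62 for B cells, 1.40 and 1.28 for macrophages, 2.72 and 1.91 for dendritic cells, and 0.61 and 0.31 for erythroid cells, in control and Eomes-overexpressing cells, respectively. Of the pair of natural killer markers, *Klrb1c* rose from 0.31 to 5.74. The CD8 T cell markers summed to 9993.62 and 10223.2, most of it from *Gzmb* (8306.38 and 8562.92). Among them only *Cd8a* passed 1.5-fold, falling from 181.81 to 99.1. *Cd3d* (189.39 and 159.01), *Cd3e* (145.17 and 122.89), *Cd3g* (264.41 and 196.45) and *Cd8b1* (197.33 and 142.53) were also lower in the Eomes library. *Gzmb* and *Prf1* (709.13 and 940.31) were higher, so the sum does not show the fall of the others. The part of these differences in the results was not tested. In a bulk sample, fewer cells that express a gene and less RNA per cell cannot be told apart.

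None of the 10 cell cycle genes passed the 1.5-fold threshold (0 of 10), beside 7.65% of the 9925 expressed genes, which reached an RPKM of 1 in either library. Their median log2 ratio was -0.0052, beside -0.0037 over all expressed genes. A ratio within 0.1 of 0 on the log2 scale was found for 6 of them. At a lower threshold of 0.32 on the log2 scale, 2 of the 10 were past it, *Cdkn1a* on the lower and *Ccne2* on the higher side, beside 22.7% of expressed genes. At 2-fold 0 of the 10 were past it, beside 0.695% of expressed genes higher and 1.76% lower. *Cdkn1a* alone was outside the central 95% of log2 ratios of the 500 expressed genes closest to it in mean RPKM, and the other 9 were inside the range of their own 500 neighbours. Such a range leaves out some genes by construction, and *Cdkn1a* was past its edge by little (log2 ratio -0.50, edge -0.47).

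**Figure D1:**
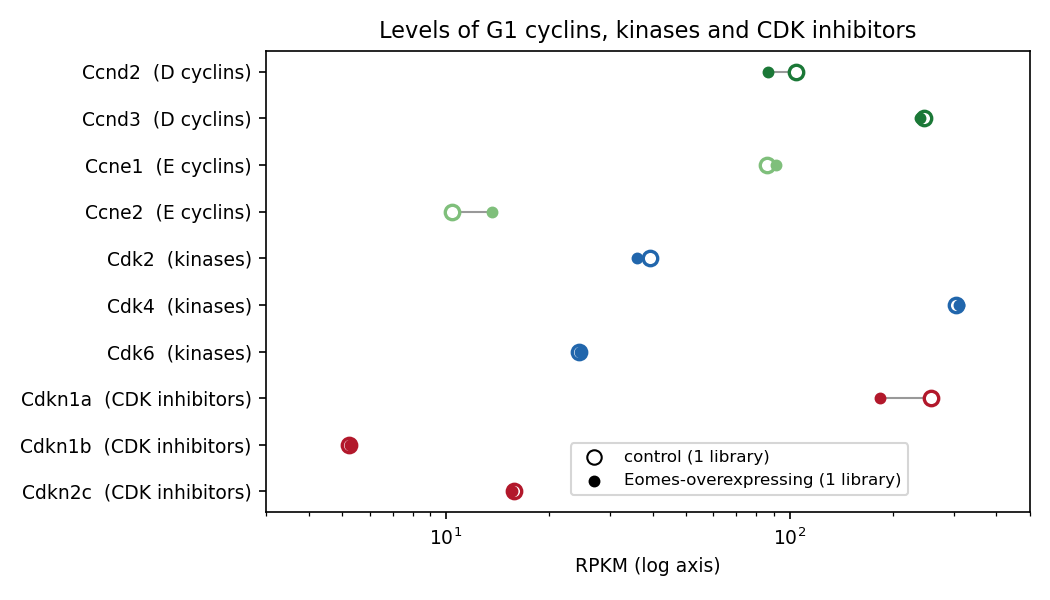
RPKM on a log axis of each G1 gene in the control library (open circles) and the Eomes-overexpressing library (filled circles), 1 library each, coloured by role. The largest gaps are those of *Cdkn1a* (258.66 and 183.4) and *Ccne2* (10.43 and 13.65), and the circles of *Cdk6*, *Cdkn1b* and *Cdkn2c* lie on each other.

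The levels spanned a wide range, and the order was close in both libraries. *Cdk4* was the highest (RPKM of 305.36 in the control library and 312.24 in the Eomes library) and *Cdkn1b* the lowest (5.21 and 5.26). *Cdkn1a* and *Ccnd3* held the next places after *Cdk4* and changed them between the libraries, as did *Ccnd2* and *Ccne1* further down. Without replicates, neighbours so close in level cannot be put in order. *Cdk4*, *Cdkn1a* and *Ccnd3* lay above the 90th percentile of expressed genes in both libraries, and *Cdkn1b* was in the lower part of the expressed genes in both.

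Of the D cyclins, which link antigen and cytokine signals to the cell cycle, *Ccnd3* was the more abundant. It lies on the plus strand of chromosome 17 of mm10 from 47505051 to 47599691, and its RPKM was 246.98 in the control library and 240.35 in the Eomes library. The log2 ratio of -0.04 was inside the central 50% of its neighbours in level (-0.13 to 0.07). A processed copy, *Ccnd3-ps*, shares 2.47% of the 50-base stretches of the longest *Ccnd3* transcript, so a small part of these reads cannot be assigned with certainty. *Ccnd2*, on the minus strand of chromosome 6 from 127125162 to 127152193, encodes the D cyclin that is induced early in activated lymphocytes. Its RPKM was 104.64 in the control library and 86.61 in the Eomes library, a log2 ratio of -0.27. That value was below 93% of its neighbours in level but inside their central 95% (-0.40 to 0.35). *Ccnd3* therefore made up 70.2% of the summed D cyclin RPKM in the control library and 73.5% in the Eomes library. The third D cyclin, *Ccnd1*, was under an RPKM of 1 in both libraries (0.24 and 0.10).

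The E cyclins, which activate Cdk2 at the entry into S phase, both had a ratio above 0. *Ccne1*, on the minus strand of chromosome 7 from 38097984 to 38107534, had an RPKM of 86.03 in the control library and 91.49 in the Eomes library. Its log2 ratio was 0.09, inside the central 50% of its neighbours. *Ccne2*, on the plus strand of chromosome 4 from 11191351 to 11204779, was less abundant, with an RPKM of 10.43 and 13.65, so that *Ccne1* was 8.25 times *Ccne2* per length in the control library and 6.70 times in the Eomes library. Its log2 ratio of 0.39 was the highest of the 10 genes, at position 704 of the 9925 expressed genes, and lay above 94.8% of its neighbours in level. The exons of *Ccne2* overlap those of *Ints8*, a subunit gene of the Integrator complex on the opposite strand, over 609 bases or 17.4% of the *Ccne2* exon bases. *Ints8* had an RPKM of 11.1 and 14.84, a log2 ratio of 0.42. Whether the counting used strand is not stated, so reads in the overlap may have gone to either gene, and their part in the value of *Ccne2* was not tested. The longest *Ccne2* transcript had a GC content of 36.3%, in the range where the median gene was higher in Eomes-overexpressing cells, and its log2 ratio was 0.13 after subtracting the median of genes of similar GC content.

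The 3 kinases had log2 ratios between -0.12 and 0.03. *Cdk4*, on the plus strand of chromosome 10 from 127063534 to 127067920, had an RPKM of 305.36 in the control library and 312.24 in the Eomes library, a log2 ratio of 0.03. *Cdk6*, the other partner of D cyclins, on the plus strand of chromosome 5 from 3341485 to 3531008, had an RPKM of 24.47 and 24.59 and a log2 ratio of 0.0071. *Cdk2*, the partner of E cyclins, lies on the minus strand of chromosome 10 from 128697939 to 128705031 and had an RPKM of 39.2 and 36.04. Its log2 ratio of -0.121 was just outside the central 50% of its neighbours, which ran from -0.119 to 0.124. *Cdk4* was thus 12.5 times as abundant per length as *Cdk6* in control and 12.7 times in Eomes-overexpressing cells. *Cdk4* overlaps *Tspan31* on the opposite strand over 19.7% of its exon bases, and *Tspan31* had an RPKM of 92.62 and 86.32, a log2 ratio of -0.10.

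Since *Cdk4* was the most abundant of the 10 genes and a textbook target of Myc, the sequence before its start site is shown. The first stretch below, from chr10:127063345-127063534 on the plus strand, ends 1 base before the start site, and capitals mark the E-box CACGTG, to which Myc binds. It holds 4 of them, starting at positions -172, -118, -98 and -11 from the start site (position 0). The second, from chr10:128705102-128705211 on the minus strand, belongs to *Cdk2*, and capitals mark its single match to the E2F words TTTGGCGC, TTTCCCGC, TTTGCCGC and TTTCGCGC, read on the reverse strand at position -140, where it also lies in an exon of *Pmel*.
*Cdk4*: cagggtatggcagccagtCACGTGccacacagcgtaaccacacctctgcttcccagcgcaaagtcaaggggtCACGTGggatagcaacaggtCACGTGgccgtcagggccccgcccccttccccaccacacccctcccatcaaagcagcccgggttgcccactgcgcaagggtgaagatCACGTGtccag
*Cdk2*: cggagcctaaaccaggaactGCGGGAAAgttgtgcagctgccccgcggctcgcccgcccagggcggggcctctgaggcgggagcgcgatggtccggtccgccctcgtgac
Sequences came from RefSeq promoter windows of GRCm38.p6 (250 bases before to 50 after a start site), which matched 8 of the 10 genes in 11 windows. *Ccnd2* and *Ccne2* had no window, so no motif was searched for at these genes. Both strands were searched. The E-box was in 3 of the 11 windows, with *Cdk6* and 1 window of *Cdkn2c* besides *Cdk4*, and in 10.5% of the 10101 windows of expressed genes. An E2F word was in 1 of the 11 and in 4.24% of the windows of expressed genes. *Myc* had an RPKM of 186.34 in the control library and 161.54 in the Eomes library, a log2 ratio of -0.21, and *E2f1* of 24.91 and 26.53, a log2 ratio of 0.09. A match of letters describes the sequence only, and binding was not analysed here.

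**Figure D2:**
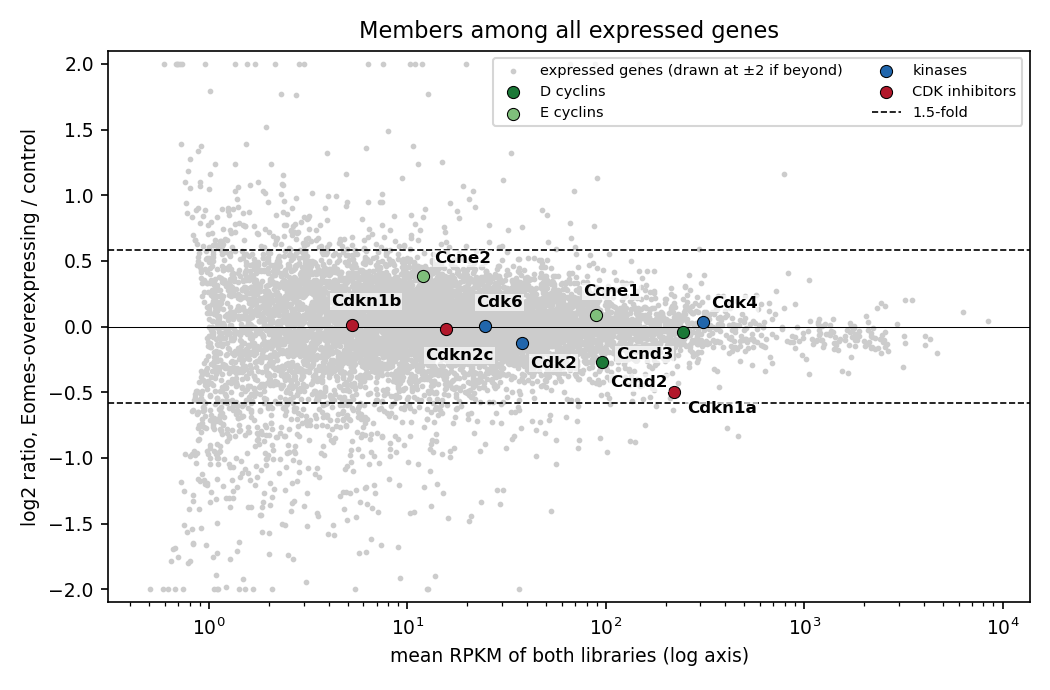
Log2 ratio of Eomes-overexpressing over control against the mean RPKM of both libraries (log axis) for 9925 expressed genes (grey, drawn at the edge if beyond ±2) and the 10 G1 genes (coloured by role). All 10 lie between the dashed lines at 1.5-fold, with *Cdkn1a* at -0.50 closest to the lower line.

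Among the CDK inhibitors, *Cdkn1a* held most of the RNA and showed the largest difference of the 10 genes. *Cdkn1a* encodes p21, a Cip/Kip inhibitor that p53 induces after DNA damage and that is also induced by mitogenic signals in activated T cells. It lies on the plus strand of chromosome 17 from 29090976 to 29100727. Its RPKM was 258.66 in the control library and 183.4 in the Eomes library, which is 1.41-fold lower with a log2 ratio of -0.50. It was at position 9265 of the 9925 expressed genes, counted from the highest log2 ratio, and below 98% of its 500 neighbours in level, whose central 95% ran from -0.47 to 0.31. The log2 ratio was between -0.42 and -0.50 under the 6 other scalings, pseudocounts and corrections tried, and stayed within 1.5-fold in each. The GC content of its longest transcript was 54.4%, and its log2 ratio was -0.42 after centring by GC content. The range of its neighbours was not centred in that way.

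The other inhibitors differed little between the libraries. *Cdkn1b* encodes p27, which holds resting T cells out of the cycle and is lost upon activation. It lies on the plus strand of chromosome 6 from 134920401 to 134925513, and its RPKM was 5.21 in the control library and 5.26 in the Eomes library, a log2 ratio of 0.01. *Cdkn2c* encodes the INK4 protein p18. It lies on the minus strand of chromosome 4 from 109660876 to 109667189 and had an RPKM of 15.73 and 15.54, a log2 ratio of -0.02. Both were inside the central 50% of their neighbours in level. *Cdkn1a* was 49.6 times as abundant per length as *Cdkn1b* in control and 34.9 times in Eomes-overexpressing cells, so that *Cdkn1a* made up 92.5% and 89.8% of the summed RPKM of the 3 inhibitors.

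Because *Cdkn1a* differed most, its promoter sequences are printed for both annotated start sites, which lie 2790 bases apart. The stretch around the downstream start site runs from chr17:29093649-29093798 on the plus strand, and capitals mark the T-box half-site AGGTGTGA, the sequence that Eomes and T-bet recognize. The match starts at position 13, in an exon of *Cdkn1a* that also overlaps an exon of the opposite-strand gene AC167363.2. The stretch around the upstream start site runs from chr17:29090859-29091008 on the plus strand, and capitals mark the paired core of the p53 response element (CATG, 6 bases of any kind and CATG), which starts at position -48 and outside the annotated gene.
*Cdkn1a*, downstream start site: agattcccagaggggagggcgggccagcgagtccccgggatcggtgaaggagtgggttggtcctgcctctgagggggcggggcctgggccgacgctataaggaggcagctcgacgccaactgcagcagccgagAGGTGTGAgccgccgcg
*Cdkn1a*, upstream start site: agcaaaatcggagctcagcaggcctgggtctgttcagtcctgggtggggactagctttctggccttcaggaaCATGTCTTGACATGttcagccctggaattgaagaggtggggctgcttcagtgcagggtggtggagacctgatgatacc
Each of these motifs was in 1 of the 11 windows, which cover 8 of the 10 G1 genes and not *Ccnd2* or *Ccne2*. The T-box half-site was in 1.28% of all 32851 promoter windows and in 0.822% of those of expressed genes. The paired p53 core was in 0.712% and 0.257%, respectively. The forkhead word GTAAACA, searched for the Foxo factors that induce *Cdkn1b*, was in 1 window, that of the upstream start site of *Ccnd3*, and in 2.57% of the windows of expressed genes.

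Ratios within a library do not depend on how the libraries are scaled to each other, so the roles were also compared in that way. Such ratios still carry the shift with GC content described below, since none was centred for it. The summed RPKM of the 3 inhibitors was 279.6 in the control library and 204.2 in the Eomes library, and that of the 3 kinases was 369.03 and 372.87. Inhibitor RNA was therefore 0.758 times the kinase RNA in control and 0.548 times in Eomes-overexpressing cells, a log2 difference of -0.47. Nearly all of this came from *Cdkn1a*, whose ratio to *Cdk2* was 6.60 and 5.09. For *Cdkn2c* against its targets *Cdk4* and *Cdk6*, the ratio was 0.0477 and 0.0461. The expressed INK4 genes *Cdkn2a*, *Cdkn2b* and *Cdkn2d* are not among the 10 and not in these sums. Their RPKM was 55.84, 21.02 and 44.43 in the control library and 44.64, 15.23 and 28.6 in the Eomes library. The D cyclins summed to 351.62 and 326.96, which is 1.07 and 0.971 times the RNA of *Cdk4* and *Cdk6*. The E cyclins summed to 96.46 and 105.14, which is 2.46 and 2.92 times the RNA of *Cdk2*. Set against each other, the Cip/Kip inhibitors were 2.74 times the E cyclins in control and 1.79 times in Eomes-overexpressing cells, a log2 difference of -0.61. That was the largest difference of all ratios taken. It sets the role with *Cdkn1a*, the lowest log2 ratio, against the role with *Ccne2*, the highest. These ratios are built from the values of single genes given above and concern RNA, not protein. Ratios of gene pairs outside the 10 were not taken for comparison.

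**Figure D3:**
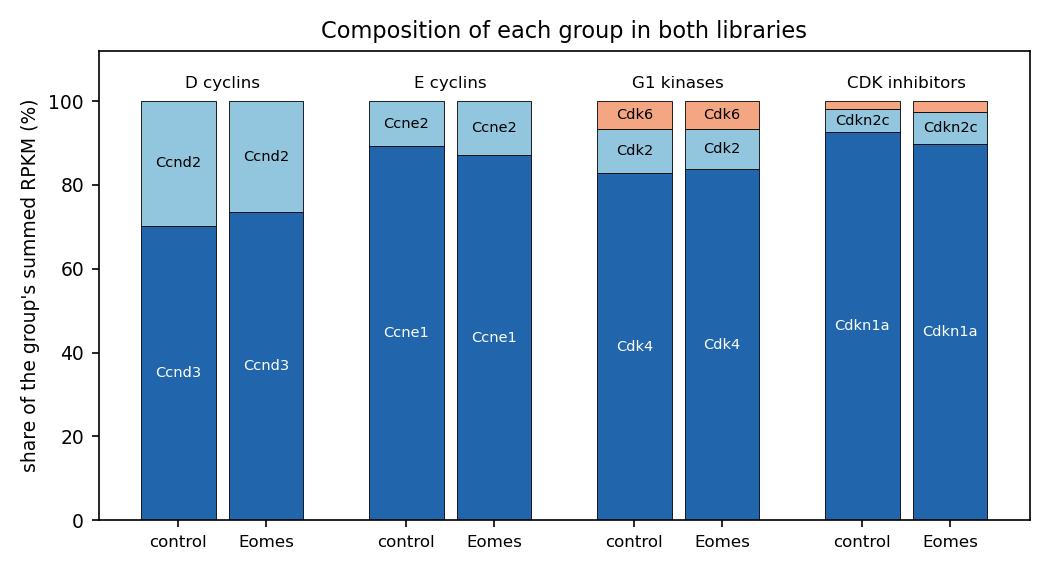
Share of each role's summed RPKM (%) taken by its genes in the control library and the Eomes-overexpressing library (Eomes), 1 library each. The thin upper segment of the CDK inhibitors is *Cdkn1b* (1.86% in the control library and 2.58% in the Eomes library), and in each role the same gene holds most of the RNA in both libraries.

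The other genes of the pathway were described by the same threshold, from 7 lists. Among 11 other G1 cyclins, kinases and inhibitors, 8 were expressed, 1 was lower and none higher beyond 1.5-fold, beside 5.19% lower and 2.46% higher among all expressed genes, and the median log2 ratio was -0.10. The 1 was *Cdkn2d*, which encodes the INK4 inhibitor p19 and fell to 28.6 from 44.43 RPKM (log2 ratio -0.64). After centring by GC content its log2 ratio was -0.55 and thus within 1.5-fold. *Cdkn2b*, which encodes the INK4 inhibitor p15, had an RPKM of 21.02 and 15.23 (log2 ratio -0.46). *Cdkn2a*, which encodes p16 and the p53-stabilizing protein Arf, had 55.84 and 44.64 (-0.32). Of the 4 INK4 genes, *Cdkn2c* was thus the 1 with a ratio within 0.1 of 0 on the log2 scale. *Ccna2*, the S phase cyclin, had an RPKM of 73.28 and 89.8 (0.29), and *Cdk1*, the mitotic kinase, 56.04 and 58.02 (0.05). The CDK-activating kinase genes *Cdk7*, *Ccnh* and *Mnat1* had log2 ratios of 0.05, 0.20 and -0.26.

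Of the 13 RB and E2F genes, through which the G1 kinases act, all were expressed and none passed 1.5-fold. Their median log2 ratio was 0.10. *Rbl2*, the RB relative p130 of resting cells, had the highest ratio (RPKM of 17.98 in the control library and 25.67 in the Eomes library, log2 ratio 0.51). *E2f2* had the lowest (27.98 and 20.74, -0.43). *Rb1* was at 5.41 and 5.29. The most abundant of the family, *E2f4*, was at 176.74 and 177.33.

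The 20 E2F target genes that prepare S phase were also all expressed, and none passed 1.5-fold. Their median log2 ratio was 0.13, with 19 above 0, where 4887 of 9925 expressed genes were above 0. The highest was *Mcm4*, a subunit of the replicative helicase (RPKM of 63.07 and 79.25, log2 ratio 0.33), and the lowest *Mcm7*, another subunit (181.82 and 180.27, -0.01). These genes were of lower GC content than the rest (median 47.0% against 49.7%), and the median log2 ratio was 0.10 after centring by GC content. Of 12 mitosis genes none passed 1.5-fold, with a median of 0.08. *Bub1*, a spindle checkpoint kinase, was the highest (9.37 and 12.92, 0.46), and *Aurka*, a mitotic kinase, the lowest (83.25 and 72.41, -0.20).

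Of 11 expressed genes for the degradation of p27, p21 and cyclin E, none passed 1.5-fold. *Skp2*, the ubiquitin ligase subunit that recognizes p27 and p21, had the highest ratio, with an RPKM of 6.15 in the control library and 8.68 in the Eomes library (log2 ratio 0.50, and 0.39 after centring by GC content). *Ddb1* had the lowest (231.57 and 203.34, -0.19). The median of the list was 0.14, or 0.09 when centred by GC content.

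Of 11 expressed transcriptional regulators of G1 genes, 1 passed 1.5-fold, beside 7.65% of all expressed genes. *Smad3*, which mediates the induction of CDK inhibitors by TGF-β, fell to 0.97 from 1.73 RPKM (log2 ratio -0.83). Its low level puts it at the edge of the genes called expressed, and with a pseudocount of 1 no gene of the list passed. The median of the list was -0.21, or -0.12 when centred by GC content and -0.08 with a minimum RPKM of 5. *Foxo1* and *Foxo3*, which induce *Cdkn1b*, had log2 ratios of 0.13 and -0.48, and *Trp53*, which encodes p53, had an RPKM of 175.58 and 182.4 (0.05).

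Because *Cdkn1a* is a target of p53, 16 other p53 targets were examined, of which 15 were expressed. Beyond 1.5-fold, 1 was lower and none higher, beside 5.19% lower and 2.46% higher among all expressed genes. That gene was *Fas*, the death receptor, which fell to 1.44 from 2.76 RPKM (log2 ratio -0.94). Beyond 0.32 on the log2 scale, 7 of the 15 were lower and none higher, beside 12% lower and 10.7% higher. The median was -0.19, or -0.16 when centred by GC content. The lowest ratios after *Fas* were those of *Bbc3*, which encodes the death-inducing protein Puma (15.24 and 10.4, -0.55), and *Perp* (3.52 and 2.51, -0.49). *Mdm2*, which encodes the ligase that degrades p53, had an RPKM of 45.82 and 47.19 (0.04), and *Ccng1* had 97.11 and 110.45 (0.19). Both came to -0.02 after centring by GC content. *Gadd45a* had the highest ratio of the list, at a low RPKM of 1.3 and 1.51 (0.22, and 0.25 after centring). Of the 15 genes, 11 had a ratio below 0 as measured and 13 after centring.

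**Figure D4:**
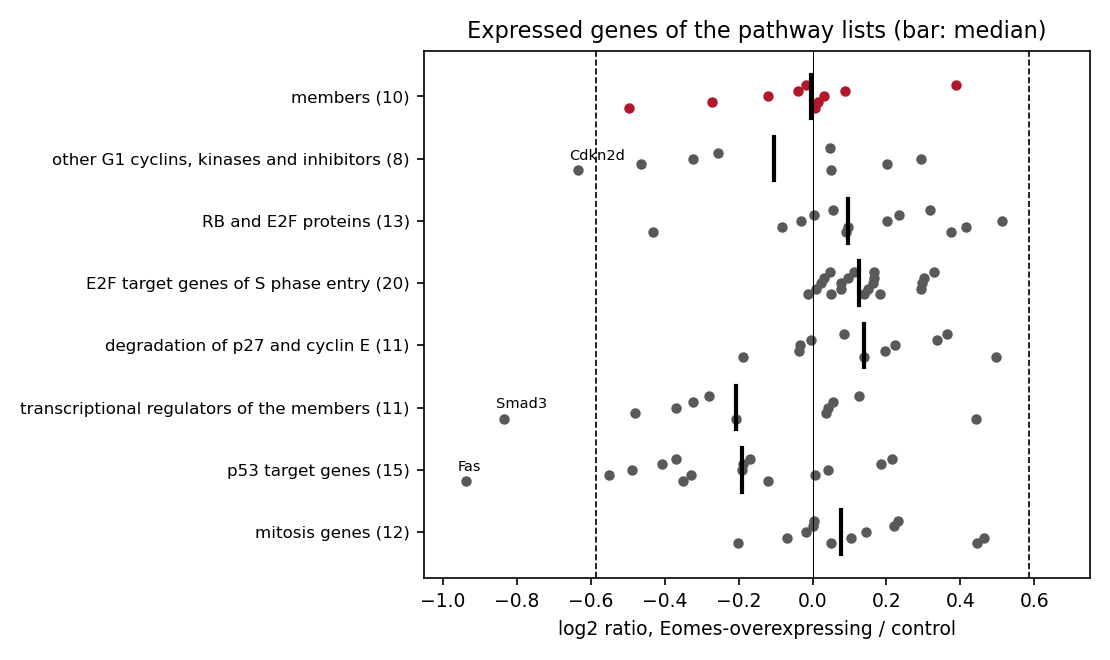
Log2 ratios of Eomes-overexpressing over control for the 10 G1 genes (red) and the expressed genes of 7 pathway lists (grey points, numbers of genes in parentheses, black bars the medians, dashed lines 1.5-fold). *Cdkn2d*, *Smad3* and *Fas* lie beyond the lower line and no gene beyond the upper one, and 19 of 20 E2F targets lie above 0.

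The log2 ratio of a gene moved with its GC content, taken from the longest annotated transcript, which touches several of these values. Across 9900 expressed genes, which are not independent replicates, Spearman's rho was -0.43. With the genes divided into 10 groups, the median was 0.23 at the lowest GC content and -0.10 at the highest. The 10 G1 genes ranged from 36.3% (*Ccne2*) to 58.0% (*Cdkn2c*). When the median of genes of similar GC content was subtracted, *Ccne2* came to 0.13, *Ccne1* to 0.17, *Ccnd2* to -0.33 and *Cdkn1a* to -0.42. At 0.32 on the log2 scale, *Ccne2* was then no longer past the threshold and *Ccnd2* was, so that 2 of the 10 passed it, beside 17.9% of expressed genes. *Cdk6* and *Cdkn1b* took negative signs (-0.08 and -0.13) and *Ccnd3* and *Cdkn2c* positive ones (0.06 and 0.08), so no direction can be given for these 4 genes. For the others, a kept sign does not establish a direction either, as each condition has 1 library. None of the 10 passed 1.5-fold after this step, beside 6.86% of expressed genes.

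**Figure D5:**
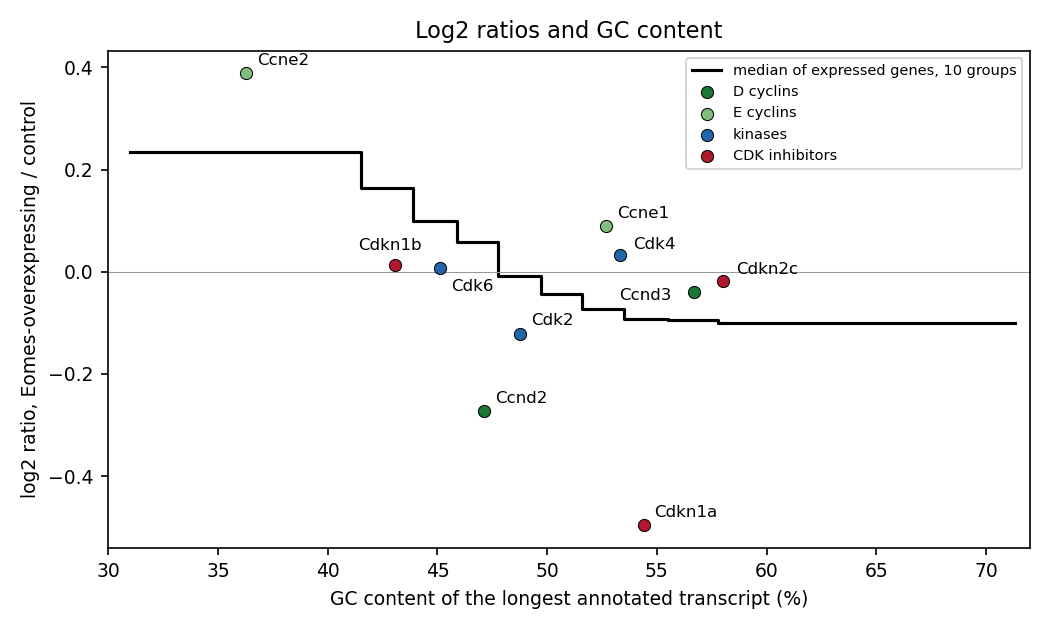
Log2 ratio of Eomes-overexpressing over control against GC content (%, longest annotated transcript) for the 10 G1 genes (coloured by role), with the median of all expressed genes in 10 groups of GC content (black line). *Ccne2* lies at 36.3% where the line is at 0.23, and *Cdkn1a* lies below the line by more than any other of the 10 genes.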

How the data were processed

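The authors deposited 1 FPKM value per gene symbol and library, which their methods call RPKM, the name used here. They cleaned the Illumina reads with SOAPnuke, used HISAT and Bowtie2 for alignment to mm10 and RSEM for quantification. Tool versions, gene annotation, strandedness and any normalization between the libraries are not given in the sources used here. Such values keep no read numbers, so depth and its precision are unknown.

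Gene symbols that a spreadsheet had turned into dates, 20 of the control and 19 of the Eomes library, were dropped. The tools were numpy 2.4.6, scipy 1.17.1, pandas 2.3.3 and matplotlib 3.10.9 under Python 3.11.15, and 0.01 stood in for a gene that a library did not list or listed lower. A gene was called expressed where either library reached an RPKM of 1. The fold threshold of 1.5 was that of the study, which also required an FDR under 0.01 and states no minimum RPKM. With 1 library per condition no test was made. Positions, lengths and GC content came from GENCODE vM21 (mm10), with a GC value for 99.7% of expressed genes, and promoter windows from RefSeq (GRCm38.p6). The steps were tested on simulated data with noise smaller than the spread of genes of similar level here. That checks the code and not how well the steps work at the noise of these data.

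The 10 members and the lists were chosen with earlier results of these data known. The text names every member, *Eomes*, genes of the lists past 1.5-fold or at their ends, and any gene of the other G1 and the RB and E2F lists. Other regulators, p53 targets and genes overlapping a member were named for their function after their values were seen. Alternatives were a pseudocount of 0.1 or 1, scaling to the summed value, to the median or by a trimmed mean, centring in 20 bins of GC content, no minimum RPKM or one of 5, and thresholds of 0.32 on the log2 scale and of 2-fold. Differences reported in the supplementary tables were not used.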

Additional observations from a re-analysis of the deposited data

How the results depend on the processing

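The 10 log2 ratios of the G1 genes moved by less than 1 SD of the 500 genes closest in level under the 6 alternatives run for them. The count of G1 genes past 1.5-fold stayed at 0 under every alternative except the threshold of 0.32 on the log2 scale, where it was 2. In all, 203 of 232 recomputed values stayed close to the reported ones, but this share does not measure robustness. The 3 scalings subtracted only -0.0037 (median), -0.0011 (trimmed mean) or -0.032 (summed value) from every log2 ratio, so values under them could hardly move. *Ccne2* counted as close although its log2 ratio went from 0.39 to 0.13 after centring by GC content. Pathway counts past a threshold were small numbers and moved with it. At 0.32 they were 3 of the other G1 genes, 4 RB and E2F genes, 1 E2F target, 3 degradation genes, 5 regulators, 7 p53 targets and 2 mitosis genes. At 2-fold they were 0 for the other G1 genes, the regulators and the p53 targets. With a pseudocount of 1 or a minimum RPKM of 5, 0 regulators passed, and with that minimum 0 p53 targets. After centring by GC content, 0 of the other G1 genes and 2 p53 targets passed. With no minimum RPKM, 3 of the other G1 genes, 2 regulators and 2 p53 targets passed. Expressed genes past the threshold, 244 higher and 515 lower, became 118 and 285 with a pseudocount of 1, 95 and 213 with a minimum RPKM of 5, 1356 and 2088 with no minimum, 69 and 175 at 2-fold, and 1061 and 1188 at 0.32. The causes were not tested, except that fewer or more genes are counted by construction under a changed minimum or threshold. No paired analysis was possible because each condition has 1 library. For the same reason no replicate could be left out. The missing depth limits statements on genes with an RPKM near 1, such as *Smad3*.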

Other observations

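The remaining cyclin and CDK genes, taken by symbol after the first results were seen, include genes that act in transcription and RNA processing. Of 26 listed, 22 were expressed, 1 of them more than 1.5-fold higher and 0 lower in Eomes-overexpressing cells, beside 2.46% higher and 5.19% lower among all expressed genes, with a median log2 ratio of 0.05. After centring by GC content 1 was higher and 1, *Ccng2*, was lower. The 1 was *Ccno*, with a low RPKM of 0.6 in the control library and 1.11 in the Eomes library (log2 ratio 0.89). *Cdk9*, the kinase that releases paused RNA polymerase, had an RPKM of 43.81 and 43.9, and its partners *Ccnt1* and *Ccnt2* had log2 ratios of 0.14 and 0.04. *Cdk12*, which acts on elongating polymerase, had 8.71 and 11.37 (0.38, and 0.39 after centring by GC content), whereas its partner *Ccnk* had 50.91 and 51.2. *Ccng2*, a cyclin of cells leaving the cycle, had 6.8 and 5.11 (-0.41, and -0.60 after centring by GC content). These genes were named after their values were seen.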
